A study of Mus musculus with 16 samples.

Results

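The comparison described here is that of mouse blastocysts treated with SP600125, a compound used as an inhibitor of the c-Jun N-terminal kinases (JNK), against control blastocysts. Its members were the 3 SP600125 samples and the 3 control samples named by the sample labels, which are 6 of the 12 samples and 8 of the 16 arrays of the study, and all probe sets were considered. The study profiled RNA of blastocysts with Affymetrix arrays in 4 groups of 3 samples, the other groups having received SB203580, used as an inhibitor of p38 kinases, or U0126, used as an inhibitor of the ERK-activating kinase MEK, each at 20 µM. SP600125 was given at 25 µM. For the control blastocysts the labels name no treatment, and they leave unsaid whether a solvent was added. In every group, replicate 1 had been labelled with a small sample assay for one 430A and one 430B array, joined here into 1 sample, whereas replicates 2 and 3 had been labelled with a two-cycle assay for 430 2.0 arrays. Nothing in the labels says that the replicates of a group came from separate collections of embryos, so p-values measure only the spread between these samples.

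JNK is the last step of a MAP kinase relay in which MAP kinase kinases activate JNK, and JNK phosphorylates transcription factors such as c-Jun and ATF2, which bind DNA as AP-1 and related dimers. A blastocyst holds 3 lineages: the trophectoderm, which forms the wall and later the placenta, the epiblast, which forms the embryo proper, and the primitive endoderm, which forms the yolk sac linings and lays down a basement membrane. The chemical inhibitors act on kinase activity, so the messenger RNA of the target kinase need not change, and SP600125 is known to bind other kinases too.

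Values below are signals, the intensity of a probe set on a linear scale, which the authors had scaled to the same trimmed mean on every array. A log2 change is the difference of log2(signal + 12.6) between SP600125 and control, taken within arrays of 1 type, with its standard error (SE). The added constant holds down the changes of dim probe sets. A probe set is called when the adjusted p of the limma fit (two-sided, Benjamini-Hochberg over all 27022 probe sets tested) is under 0.05, and a gene is called when at least 1 of its probe sets is. Signals of different genes are not comparable in level, because each probe set has its own response.

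The blastocyst label was checked against lineage markers. All 7 primitive endoderm, 4 epiblast and 5 trophectoderm markers passed the signal filter in these samples, with trophectoderm sums of 36353 to 100586 in controls and 37511 to 99270 with SP600125. Epiblast sums ran from 2905.8 to 8561.2 and from 3854.7 to 8511.9. Markers of other cells were mostly dim: 2 of 6 cumulus, 2 of 4 uterine or oviduct and 3 of 5 blood cell markers passed the filter. None of the 15 was at 0 in any of the 6 samples or called. An exception was Foxl2, on the cumulus and granulosa list, at 1697.7 in control replicate 1 and 1057.9 in SP600125 replicate 1. On the 430 2.0 arrays Foxl2 had 112.5 and 113.7 in controls and 105.5 and 155.1 with SP600125. On a longer list of blood and immune cell markers, 5 of 14 genes were tested and all 5 had a positive value, with a median of 0.47 and 1 call, Laptm5. The part of such cells in the results was not tested. The actin signal at the 3′ end divided by that at the 5′ end, which rises with RNA breakdown or short labelling, was 3.66 on the 430A array of SP600125 replicate 1 against 2.47 in its control (3.22 against 2.19 on 430B), and 1.75 and 1.62 against 1.70 and 1.58 on the 430 2.0 arrays. The same ratio for GAPDH was lower with SP600125 in replicate 1 (3.46 against 4.03 on 430A and 3.27 against 4.01 on 430B) and replicate 2 (3.95 against 4.80) and higher in replicate 3 (3.37 against 3.05).

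With SP600125, 160 of the 27022 probe sets were called, or 0.592 percent. Of these, 72 were higher (0.266 percent) and 88 were lower (0.326 percent), and the probe sets that name 1 gene stood for 51 higher (0.404 percent) and 69 lower (0.547 percent) of 12614 genes. The shares of genes, 0.404 and 0.547 percent, are the background for each count of called list members below. At an unadjusted p under 0.05 the limma fit held 2303 probe sets. All 160 moved the same way in each replicate and had no overlap between SP600125 and control within an array type, which was so for 22.5 percent of all probe sets tested. The rises were fewer but larger: 22 of the 72 exceeded 2 on the log2 scale, against 6 of the 88 falls. The control signal of the called probe sets on 430 2.0 arrays had a median of 633.5 for rises and 1826.7 for falls, against 229.9 for all tested. The median difference of the falls was -1.11, -1.07 and -1.05 in replicates 1, 2 and 3, but these probe sets were called on all 3 replicates, which favours like values. The part of the actin ratio in the falls was not tested.

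**Figure D1:**
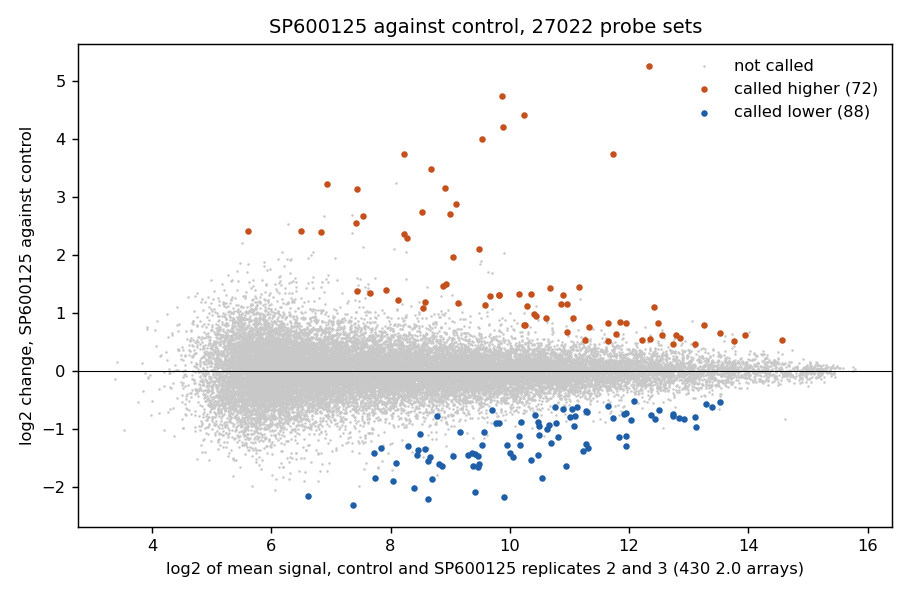
Log2 change of SP600125 against control for each of the 27022 probe sets tested, set against the log2 of the mean signal of both groups on the 430 2.0 arrays. Orange points are the 72 probe sets called higher, blue points the 88 called lower and grey points those not called; the rises reach 5.26 and the falls -2.31.

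The largest rises were those of AF067061, BC080696 and Gm11544 and of probe sets without a gene name in the platform annotation used. Genes known from the 2-cell stage of the mouse embryo, when the embryonic genome is first switched on, were among the other large rises. Of 20 tested genes on a list of 2-cell and cleavage stage transcripts, 9 were called higher and none lower, with a median change of 1.56 over the list against -0.00 over all genes. The list includes 5 genes (AF067061, BC080696, D13Ertd608e, Gm11544 and Gm20767) entered because earlier results on these samples had named them, so its count is no independent evidence. Without them, 4 of 15 genes (Tcstv1, Tcstv3, Usp17la and Zfp352) were called higher and the median was 0.78. The share called higher over all genes was 0.404 percent. A transcript low in controls passes the signal filter through the treated samples alone, so those that passed had to differ more often. On the 430 2.0 arrays alone 7 genes of the full list were called, and without SP600125 replicate 1 it was 6, with Tcstv1, Tcstv3 and Gm20767 lost in both.

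BC080696, an uncharacterized transcript, had signals of 214.4, 146.1 and 33.1 in control replicates 1, 2 and 3 and of 3853.2, 1015.1 and 2612.2 with SP600125. Every treated sample lay above every control sample of its array type. The rise was 4.21 ± 0.42 (log2 change ± SE, n = 3, adjusted p = 0.000203) and kept its call in each of the 6 omissions of 1 sample. AF067061 went from 15.7, 148.2 and 8.5 to 653.7, 1136.6 and 2431.2, a rise of 4.75 ± 0.73 in which the 2 lowest control signals were close to or below the added constant. Gm11544 went from 127.2, 41.8 and 8.9 to 1549.5, 270.2 and 874.9. In both, the control of replicate 2 was the brighter of the 430 2.0 controls, and the groups did not overlap. Gm11544 rose by 3.74 ± 0.50.

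Tcstv3, a member of a small gene family of the 2-cell stage, had control signals of 7.4, 3.2 and 14.5 and signals of 127.3, 130.9 and 341.7 with SP600125. It was near or under the added constant in all controls and rose by 3.23 ± 0.63 (adjusted p = 0.0241), a call lost in each of the 6 omissions. Usp17la, which encodes a deubiquitinating enzyme, had signals of 195.4, 99.4 and 57.0 in controls and of 638.8, 723.6 and 1318.5 with the compound, without overlap. Zfp352, a zinc finger gene of the 2-cell embryo, went from 112.4, 62.8 and 78.4 to 320.8, 445.4 and 649.8. Its rise was 2.29 ± 0.45 (adjusted p = 0.0261), on 1 of 2 probe sets. Among members that did not pass, Spz1 stood at 1.96 ± 0.64 and Sp110 at 1.16 ± 0.28, while Pramel6 and Eif1a were at 0.07 ± 0.09 and -0.05 ± 0.12.

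Some of these genes are neighbours. D13Ertd608e, Tcstv1, Gm20767, AF067061 and Tcstv3 lie within a run of 30 consecutive RefSeq entries on mouse chromosome 13. The run was bounded by called genes, D13Ertd608e and Tcstv3, so the share of calls within it follows from that choice and is given as a description: of the 30 entries 6 were tested and 5 called higher. The sixth, BC147527, had signals of 2.5, 27.6 and 14.8 in controls and 5.0, 44.7 and 167.1 with SP600125. It was higher in every replicate but did not pass (1.15 ± 0.67, adjusted p = 0.709). D13Ertd608e went from 202.0, 49.7 and 71.3 to 692.2, 665.8 and 683.4, or 2.74 ± 0.36 (adjusted p = 0.00156), with replicate differences of 1.72, 3.23 and 3.27. The members of such a run can be near-identical copies, and the probe sets of D13Ertd608e and AF067061 carry the suffixes (_s_at, _x_at) that Affymetrix gave to probes shared with other transcripts, so the signal cannot be assigned to 1 copy with certainty.

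Of the 72 probe sets that rose, 14 named no single gene, and 8 of these changed by more than 2. Probe set 1443961_at had the largest change of all, from 388.0, 591.5 and 95.0 in controls to 19080.8, 5245.5 and 14722.2 with SP600125. The groups were far apart in each array type (5.26 ± 0.82, adjusted p = 0.00436). Probe set 1457033_at went from 266.2, 184.8 and 60.3 to 8787.9, 1394.5 and 3204.6, with the smallest adjusted p of the comparison (4.43 ± 0.39, adjusted p = 7.58e-05). Probe sets 1442334_at, 1427479_at and 1458564_at rose by 4.0 ± 0.45, 3.74 ± 0.47 and 3.16 ± 0.34. These 5 probe sets kept their calls in all 6 omissions, and each also differed from SB203580 and from U0126 samples in the limma fit.

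**Figure D2:**
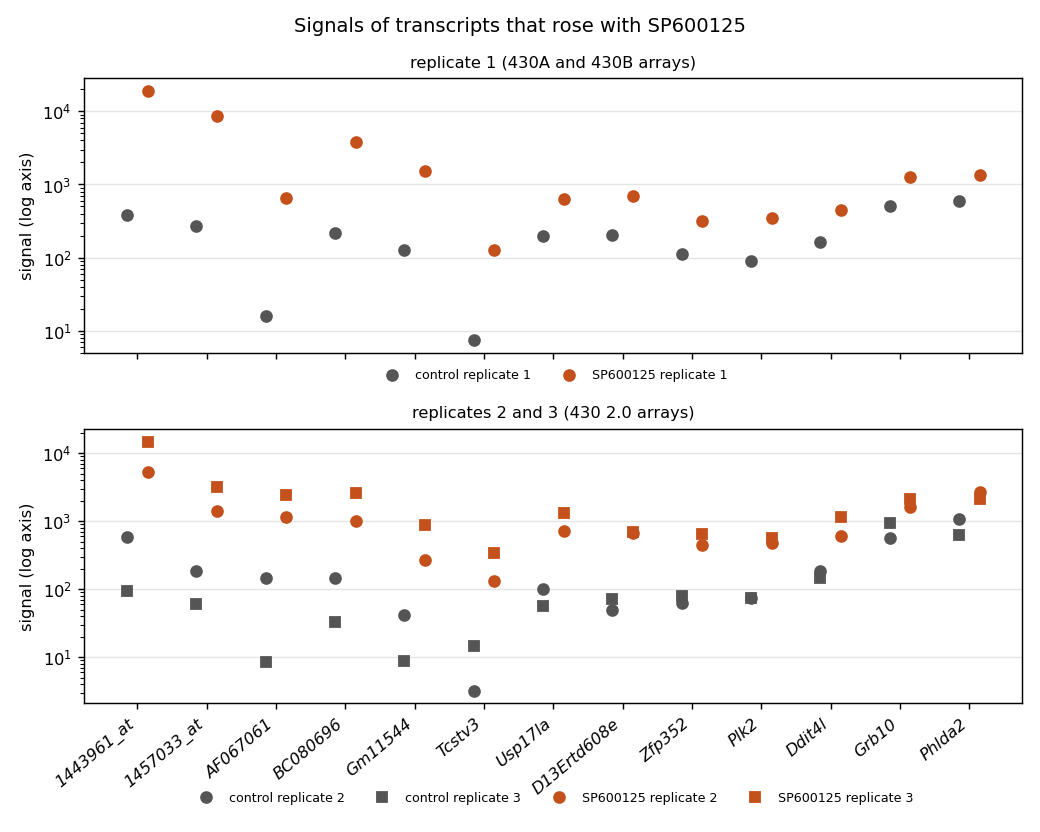
Signal (log axis) of 11 genes and 2 unnamed probe sets that rose with SP600125, for replicate 1 (top) and for replicates 2 and 3 (bottom), control in grey and SP600125 in orange. In every column and array type all SP600125 points lie above all control points, and the control of replicate 3 is at or below 100 for 1443961_at, 1457033_at, AF067061, BC080696, Gm11544, Tcstv3, Usp17la, D13Ertd608e, Zfp352 and Plk2.

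Genes known to be activated by the tumour suppressor p53 were also among the rises. Of 30 tested p53 target genes 4 were called higher and none lower, with a median of 0.37, or 0.10, 0.45 and 0.61 in replicates 1, 2 and 3. Over all genes tested 0.404 percent were called higher. A positive value was held by 25 of the 30 p53 targets, against 6275 of 12614 genes in all. Plk2, a polo-like kinase gene, had signals of 89.4, 74.2 and 74.0 in controls and of 347.7, 484.1 and 570.9 with SP600125. The control values were tight and all treated samples were well above them (2.36 ± 0.40, adjusted p = 0.00889). Ddit4l, which encodes a stress-induced regulator of mTOR signalling, went from 165.8, 184.4 and 146.0 to 447.0, 607.6 and 1171.9 without overlap. It rose by 1.97 ± 0.31 (adjusted p = 0.00491) on 1 of 3 probe sets and kept its call in all omissions. Btg2, an antiproliferative and immediate early gene, rose by 1.17 ± 0.22 (580.9, 344.4 and 262.6 against 944.4, 805.9 and 841.6), and Ccng1, cyclin G1, by 0.83 ± 0.17 on 1 of 3 probe sets.

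Other p53 targets had positive values without passing, such as Cdkn1a, the cell cycle inhibitor p21 (0.86 ± 0.23, adjusted p = 0.137), Pmaip1, the apoptosis gene Noxa (1.02 ± 0.28), and Mdm2 (0.43 ± 0.26). Bbc3 (Puma) stood at -0.04 ± 0.42. The count was 5 on the 430 2.0 arrays alone and without SP600125 replicate 1, Cdkn1a being the added call. In the limma fit no member was called among 24 genes of the BCL2 and caspase families (2 at an unadjusted p under 0.05, median 0.05). The same held for 35 genes of G2 and mitosis (3, median 0.09, and -0.00 on the 430 2.0 arrays alone). It also held for 33 of the G1 to S transition (2, median -0.01). Over all 12614 genes 0.951 percent were called, so a list of this size can hold no call at that share. At an unadjusted p under 0.05 in the limma fit, 579 of the 12614 were higher and 711 lower.

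Among 20 tested imprinted genes, which are expressed from 1 parental copy, Grb10 and Phlda2 were called higher and none lower (median 0.16). The share called higher over all genes was 0.404 percent. Grb10, which encodes an adaptor that restrains growth factor signalling, had signals of 513.3, 560.2 and 932.1 in controls and of 1256.1, 1641.5 and 2105.0 with SP600125. Its groups did not overlap, and the rise of 1.32 ± 0.19 (adjusted p = 0.00233) was on 1 of 3 probe sets. Phlda2, a gene that limits placental growth, went from 594.3, 1070.8 and 617.3 to 1367.3, 2706.6 and 2134.3 (1.43 ± 0.23, adjusted p = 0.00636). Both calls stood in every omission. Impact (0.76 ± 0.21, adjusted p = 0.168) was higher in all replicates without passing.

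Further rises belonged to no single list. Sycp3, a protein of the meiotic chromosome axis, went from 185.5, 1050.9 and 1138.7 to 387.6, 2135.9 and 3063.6. It was higher in each replicate and kept its call in all omissions (1.15 ± 0.17, adjusted p = 0.00328). Slc25a20, the mitochondrial carrier for acylcarnitines, went from 1109.2, 4412.1 and 3253.1 to 3158.9, 7988.2 and 6282.9, on both of its probe sets (1.10 ± 0.15). Vnn1, a pantetheinase, went from 3796.5, 12539.9 and 12635.8 to 6177.2, 19222.4 and 18412.8. This change was small but even, on both probe sets (0.62 ± 0.09, adjusted p = 0.00235). Bhmt, betaine homocysteine methyltransferase, rose by 0.53 ± 0.09, the iron exporter gene Slc40a1 by 0.91 ± 0.17, the G protein gene Gnai1 by 0.98 ± 0.16, and Klk7, a secreted serine protease, by 1.47 ± 0.21. The guidance receptor gene Robo1 was the 1 call among 29 axon guidance genes, where 0.951 percent of all genes tested were called. Robo1 had signals of 73.3, 62.9 and 37.2 in controls and of 881.5, 190.9 and 451.7 with SP600125. It rose by 2.68 ± 0.46, a call lost on the 430 2.0 arrays alone and without SP600125 replicate 1.

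The other genes among the 20 largest rises were of unlike kinds. E030030I06Rik rose by 2.42 ± 0.44, Prr18 by 2.40 ± 0.48 on 1 of 2 probe sets, and Ap5z1, a subunit of an adaptor complex of late endosomes, by 2.42 ± 0.43 on 1 of 5. The brightest probe set of Ap5z1 stood at 0.30, and its called one had control signals of 9.9 and 12.9 on the 430 2.0 arrays. These are close to the constant of 12.6 added before log2. Against the same controls the called probe set also rose with SB203580 (2.89 ± 0.43) and with U0126 (2.58 ± 0.43). E030030I06Rik stood at 1.98 ± 0.44 with SB203580 without passing. Gm7969 rose by 1.46 ± 0.31, 1700013H16Rik by 1.40 ± 0.30 and Lrsam1, a ubiquitin ligase gene, by 1.38 ± 0.29. None of these 3 kept its call in more than 1 omission. Lrsam1 was also called higher with SB203580 against control (1.47 ± 0.29, limma adjusted p = 0.0351).

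In the lysosome and autophagy list 3 of 35 genes were called higher (Lamp2, Laptm5 and Sqstm1) and 1 lower (Ctsb, on 1 dim probe set of 5), with a median of 0.09. Laptm5 is also on the list of blood and immune cell markers and rose on 1 of 4 probe sets (118.3, 696.9 and 660.5 against 370.4, 1604.7 and 1576.3). All 4 calls were lost on the 430 2.0 arrays alone and without SP600125 replicate 1. The same omission ended the calls of Krt19, a keratin of the trophectoderm, and of Elf5, a transcription factor of trophoblast stem cells. In the NRF2 and glutathione list, 1 of 30 genes was called higher (Sqstm1) and 1 lower (Gsta4, a glutathione transferase, -0.53 ± 0.11). The median was 0.07, and neither gene was called on the 430 2.0 arrays alone. For this list and the lysosome list the background was 0.404 percent of genes called higher and 0.547 percent lower. A single call in a list of this size says little of the list.

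Among the falls, primitive endoderm genes stood together with genes for the basement membrane and for the uptake of nutrients in visceral endoderm. Of 11 transcription factors and receptors of the primitive endoderm, 5 were called lower and none higher, with a median of -1.14 against -0.00 over all genes. In the list of 25 basement membrane and matrix genes 5 were called lower (median -0.30), and of 15 endocytosis and transport genes of visceral endoderm 4 were called lower (median -0.38). None of either list was called higher. Over all genes tested 0.547 percent were called lower. The samples are whole blastocysts, so fewer cells of a type and less RNA per cell cannot be told apart. The first list kept 3 of its calls (Foxq1, Pdgfra and Sox17) on the 430 2.0 arrays alone or without SP600125 replicate 1, and the other lists kept all of theirs.

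Sox17, an HMG-box factor of definitive and primitive endoderm, had signals of 1388.3, 3570.9 and 3340.9 in controls and of 503.3, 1445.0 and 1235.2 with SP600125. All treated samples were below the controls of their array type, and the fall was -1.39 ± 0.21 (adjusted p = 0.00318). Sox7, a related factor, went from 329.3, 401.3 and 602.1 to 98.7, 210.1 and 188.4, and Foxa2, a forkhead factor of endoderm, from 404.9, 338.4 and 327.6 to 158.2, 103.8 and 146.5. Neither overlapped, but Sox7 was kept in 1 and Foxa2 in none of the 6 omissions. Pdgfra, the receptor for platelet-derived growth factor and a surface marker of primitive endoderm, had 683.6, 2548.2 and 2461.2 in controls and 323.7, 1198.2 and 999.8 with the compound. It fell by 1.14 ± 0.15 (adjusted p = 0.00168) on 2 of 3 probe sets.

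Gata6, the factor at the head of the primitive endoderm programme, did not pass on any of its 3 probe sets. Its brightest probe set had signals of 2719.6, 4895.0 and 5088.3 in controls and 3815.4, 5278.8 and 5178.5 with SP600125, or 0.21 ± 0.12 (adjusted p = 0.704). The other probe sets stood at -0.08 ± 0.17 and -0.14 ± 0.21. Gata4, its relative, was lower in all replicates without passing (-1.12 ± 0.33, adjusted p = 0.21). Dab2, an endocytic adaptor of the same lineage, stood at -0.07 ± 0.10 (11231.9, 14735.4 and 14571.2 against 9906.6, 15021.2 and 14154.6), with overlapping groups. The summed signal of the 7 primitive endoderm markers, which include both Gata genes, was 18582, 28897 and 29461 in controls and 15267, 24160 and 23066 with SP600125. Dab2 and Gata6 were the brightest of the 7 and weighed most in these sums, which say little of the dimmer markers.

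**Figure D3:**
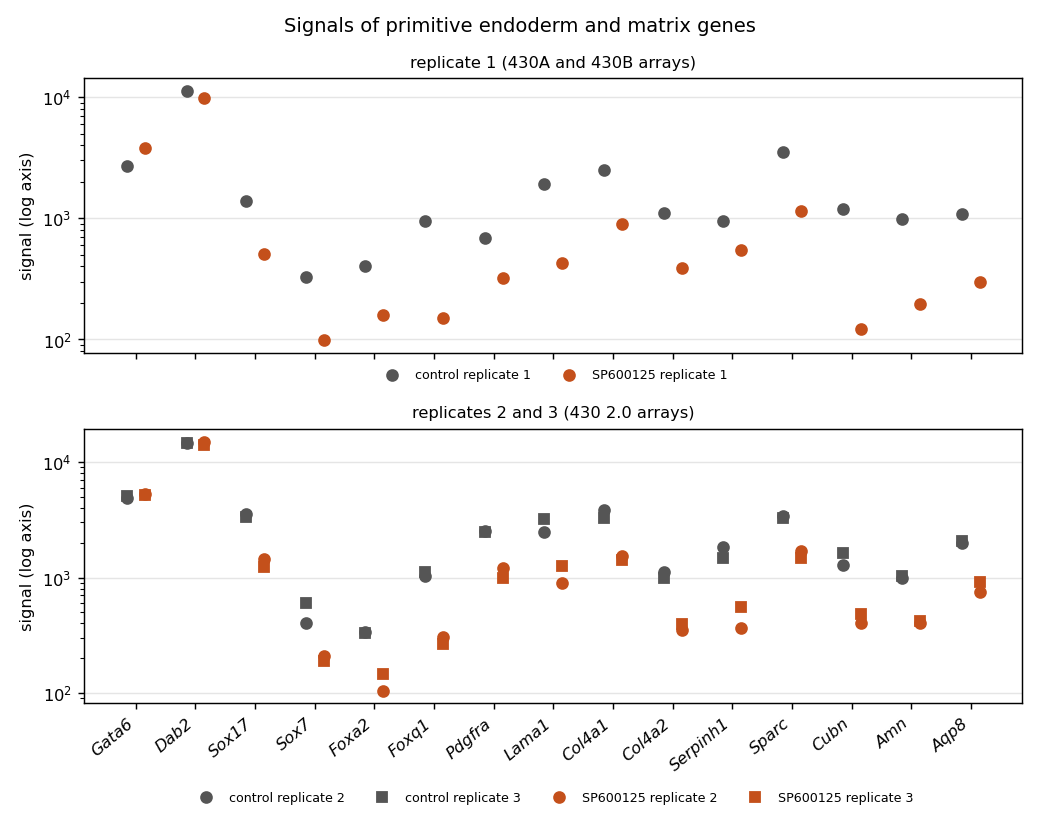
Signal (log axis) of 15 genes of the primitive endoderm, its matrix and its transport functions in control (grey) and SP600125 (orange) samples, replicate 1 above and replicates 2 and 3 below. Gata6 and Dab2, at the left, did not pass the test and lie at like levels in both groups, while the other 13 genes were called lower and all their SP600125 points lie below the controls.

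The matrix genes that fell encode chains of the basement membrane and proteins that fold or bind collagen. Col4a1 and Col4a2, neighbouring genes that encode the chains of type IV collagen, went from 2495.5, 3880.2 and 3282.6 to 897.6, 1539.1 and 1424.7 and from 1106.6, 1109.6 and 982.7 to 386.9, 350.0 and 396.1. The changes were -1.33 ± 0.16 and -1.47 ± 0.17. Serpinh1, the collagen chaperone HSP47, went from 948.4, 1837.5 and 1479.1 to 551.7, 362.1 and 560.4 on both of its probe sets, without overlap (-1.48 ± 0.22, adjusted p = 0.00339). Lama1, the laminin alpha 1 chain, fell by 1.65 ± 0.21 and Sparc, a collagen-binding matrix protein, by 1.26 ± 0.16. Other chains did not pass: Lamb1 stood at -0.43 ± 0.15, Lamc1 at -0.71 ± 0.20, the nidogen gene Nid1 at -0.00 ± 0.12 and the perlecan gene Hspg2 at -0.03 ± 0.24. All 5 falls were kept in every omission.

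Of the transport genes, Cubn, the multiligand receptor cubilin, had signals of 1200.6, 1286.4 and 1645.0 in controls and of 122.1, 405.4 and 479.9 with SP600125. Its partner Amn went from 979.7, 995.4 and 1038.2 to 197.7, 403.6 and 416.7. The groups did not overlap for either gene, and the difference was largest in replicate 1 for both. Lrp2, the gene of the third receptor of that complex, megalin, stood at 0.01 ± 0.12. Srgn, the proteoglycan serglycin, fell by 1.84 ± 0.30. Aqp8, a water channel, fell from 1092.1, 1976.6 and 2052.1 to 300.4, 755.6 and 914.6, with the smallest adjusted p among the falls (-1.45 ± 0.15, adjusted p = 0.000279). The apolipoprotein gene Apoa1 had a positive value that did not pass (2.04 ± 0.48, adjusted p = 0.0756).

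Cell surface and secreted proteins made up further falls. F2r, the thrombin receptor PAR1, went from 2314.4, 5237.4 and 5314.1 to 604.0, 2427.9 and 2895.1 on both of its probe sets. It kept its call in all omissions (-1.30 ± 0.19, adjusted p = 0.00318). Tfpi, an inhibitor of the coagulation factor that starts thrombin formation, fell by 0.80 ± 0.16 on 1 of 4 probe sets. Ckap4, a membrane protein of the rough endoplasmic reticulum, went from 3067.0, 1953.8 and 1799.6 to 816.8, 874.7 and 596.8 (-1.54 ± 0.19). Flrt3, a partner of FGF receptors in adhesion, fell by 1.44 ± 0.21 on both probe sets, and Fgfr4, an FGF receptor, by 1.42 ± 0.31. These were 2 of 15 tested genes of the FGF list, whose median was -0.24, and 0.547 percent of all genes tested were called lower. Podxl (podocalyxin) fell by 1.56 ± 0.31, the carbonic anhydrase gene Car4 by 1.28 ± 0.27, the proprotein convertase gene Pcsk6 by 0.89 ± 0.14 and the actin bundler gene Fscn1 by 0.83 ± 0.13. Vim, the intermediate filament protein vimentin, fell by 1.41 ± 0.26 on 1 of 3 probe sets, and its brightest probe set did not pass (-1.17, adjusted p = 0.159). Of 12 placental proteases and their inhibitors, Csta1, a cystatin (-0.81 ± 0.13), and Htra1, a secreted serine protease (-0.86 ± 0.14), were called lower and Klk7 higher, with a median of -0.12. Pga5, a pepsinogen gene, fell by 1.59 ± 0.31.

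Regulators that fell included Foxq1, a forkhead factor (948.3, 1034.9 and 1113.9 against 150.3, 306.1 and 264.4), with one of the largest falls, -2.10 ± 0.25. Runx1, a factor known from blood formation, fell on 1 of 6 probe sets (-1.46 ± 0.29), a call lost in each of the 6 omissions. Tcf15, a bHLH factor, fell by 1.06 ± 0.22. Of 19 Wnt ligands and responsive genes 2 were called lower, Cdx1 (-1.90 ± 0.35) and Dkk1 (-1.29 ± 0.28), with a median of -0.22. On the 430 2.0 arrays alone neither passed. Dusp4, a phosphatase of ERK, was the 1 call among 15 tested genes of ERK output (median -0.27). Bmper, a BMP-binding protein, was the 1 call among 26 BMP, Nodal and TGF-beta genes (median -0.16). Ajuba, a LIM domain scaffold, was the 1 call among 21 Hippo genes (median -0.17). Each of these fell, and 0.547 percent of all genes tested were called lower. On the 430 2.0 arrays alone Bmper and Ajuba did not pass, and Ajuba did not pass without SP600125 replicate 1 either.

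Among genes of lipid synthesis, most of the falls lay in the sterol branch. Of 21 cholesterol synthesis genes 6 were called lower and none higher, 19 of the 21 had a negative value, and the median was -0.51. The share called lower over all genes was 0.547 percent. Cyp51, lanosterol demethylase, had signals of 634.4, 1895.8 and 2425.3 in controls and of 356.4, 973.9 and 1024.8 with SP600125. Idi1, isopentenyl diphosphate isomerase, went from 2081.3, 7496.5 and 7088.6 to 1381.9, 3431.3 and 4080.3, on both of its probe sets. In both genes the treated samples lay below the controls of their array type. Nsdhl, a sterol dehydrogenase, and Pmvk, phosphomevalonate kinase, fell by 0.60 ± 0.12 and 0.71 ± 0.15, and neither kept its call in any omission. Fdft1, squalene synthase, and Sqle, squalene epoxidase, fell by 0.78 ± 0.13 and 0.74 ± 0.12. Dhcr7, the last enzyme of the pathway, stood at 0.00 ± 0.17.

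Of 25 genes of fatty acid synthesis and storage 2 were called lower, the stearoyl-CoA desaturases Scd1 and Scd2, and the median was -0.21. The share called lower over all genes was 0.547 percent. Scd2 went from 3796.2, 10174.2 and 13527.0 to 1898.0, 5757.5 and 6294.1 (-0.97 ± 0.16). Scd1 fell less, by 0.58 ± 0.11 on both of its probe sets. Fasn, fatty acid synthase, was lower in all replicates without passing (-0.73 ± 0.17, adjusted p = 0.0646). The mitochondrial citrate carrier gene Slc25a1, which supplies carbon for lipid synthesis, fell by 0.68 ± 0.14.

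The promoters of the sterol genes are shown because they hold a shared element. In the RefSeq promoter sequences (assembly GRCm38.p6, 250 bases before the start of each gene), 17 of the 21 cholesterol genes were found, and all 17 held the inverted CCAAT box ATTGG on either strand. The same letters were found in 40.4 percent of the 10196 tested genes with a promoter sequence, in 45.1 percent of the 51 genes called lower that had one and in 43.2 percent of the 37 called higher. Sterol genes are a textbook case of promoters where a CCAAT-binding factor works beside the sterol sensor SREBP. The core of the sterol response element, searched as TCACNCCAC on both strands, was found in 1 of the 17 (Hmgcs1), in 0 of the 4 called genes with a sequence and in 1.28 percent of tested genes. The CCAAT element is common and short, and its presence is a description of these windows. Of the 6 called genes, the following 4 had a promoter sequence, printed from the gene's own strand with the element (ATTGG or its complement CCAAT) in capitals.
Cyp51, chr5:4104698-4104947, minus strand: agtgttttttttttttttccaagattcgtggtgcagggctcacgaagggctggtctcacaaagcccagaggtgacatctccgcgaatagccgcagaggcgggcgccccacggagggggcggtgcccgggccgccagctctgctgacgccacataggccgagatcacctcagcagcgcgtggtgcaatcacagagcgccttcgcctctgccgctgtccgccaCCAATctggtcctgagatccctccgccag
Idi1, chr13:8885356-8885605, plus strand: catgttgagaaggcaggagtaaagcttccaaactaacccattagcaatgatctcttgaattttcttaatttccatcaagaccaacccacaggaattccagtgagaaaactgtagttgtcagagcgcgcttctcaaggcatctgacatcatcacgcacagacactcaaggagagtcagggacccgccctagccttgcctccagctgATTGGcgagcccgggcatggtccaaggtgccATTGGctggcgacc
Nsdhl, chrX:72918271-72918520, plus strand: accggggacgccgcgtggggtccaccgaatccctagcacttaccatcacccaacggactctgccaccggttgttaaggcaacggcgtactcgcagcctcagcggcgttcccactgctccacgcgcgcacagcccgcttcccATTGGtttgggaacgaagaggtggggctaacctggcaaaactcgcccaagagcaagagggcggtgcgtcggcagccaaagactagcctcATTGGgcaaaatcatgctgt
Pmvk, chr3:89454291-89454540, plus strand: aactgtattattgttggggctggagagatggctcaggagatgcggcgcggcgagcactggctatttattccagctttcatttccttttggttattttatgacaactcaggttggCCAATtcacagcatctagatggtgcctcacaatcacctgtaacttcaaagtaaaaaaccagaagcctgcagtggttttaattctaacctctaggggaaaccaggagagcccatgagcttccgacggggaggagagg

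Genes of amino acid supply formed the last group of falls. Of 35 genes of the amino acid response and of serine synthesis 4 were called lower and none higher, with a median of -0.36, or -0.63, -0.28 and -0.15 in replicates 1, 2 and 3. Nupr1, a stress-induced chromatin protein, had signals of 222.3, 950.8 and 935.0 in controls and of 84.3, 304.4 and 326.0 with SP600125. It fell on both of its probe sets and in every omission (-1.46 ± 0.20, adjusted p = 0.00227). Cbs, cystathionine beta-synthase, went from 1292.8, 1990.2 and 1995.4 to 645.9, 1043.9 and 746.2 (-1.10 ± 0.15, adjusted p = 0.00156). Chac1, a glutathione-degrading enzyme, fell by 1.48 ± 0.27 and Phgdh, the first enzyme of serine synthesis, by 0.68 ± 0.15. On the 430 2.0 arrays alone 2 of the 4, Cbs and Nupr1, were called. Atf4, the factor that drives these genes, stood at -0.29 ± 0.11 and Asns, asparagine synthetase, at -0.21 ± 0.12. The 25 genes of the unfolded protein response held no call in the limma fit (4 at an unadjusted p under 0.05, median -0.02). Over all 12614 genes 0.951 percent were called (0.547 percent lower). At an unadjusted p under 0.05 in the limma fit, 579 of the 12614 were higher and 711 lower.

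**Figure D4:**
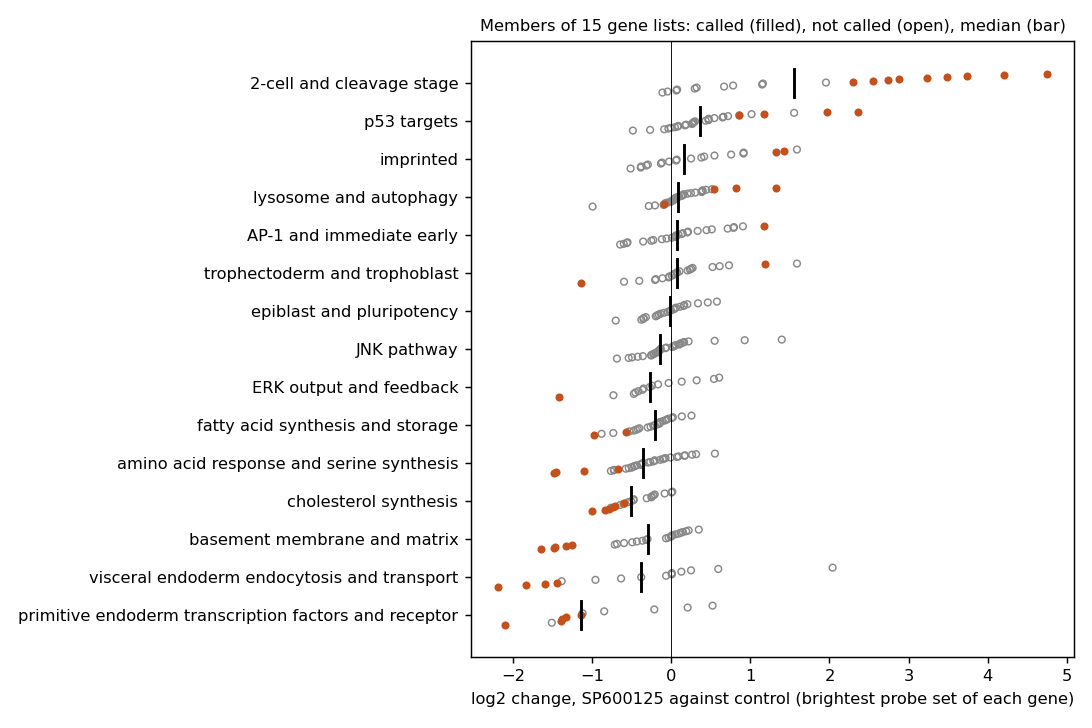
Log2 change of SP600125 against control for the tested members of 15 gene lists, using the brightest probe set of each gene. Filled points are genes with a called probe set, open points genes without one, and the black bar is the median, which is 1.56 for the 2-cell and cleavage stage list and -1.14 for the primitive endoderm list; Ctsb, filled near 0 in the lysosome list, was called on a dimmer probe set.

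In the pathway that SP600125 is used to block, no gene was called. The JNK pathway list held 32 tested genes, with 0 called against a background of 0.951 percent of genes, 2 at an unadjusted p under 0.05 in the limma fit (1 in each direction) and a median of -0.14. Mapk8, the gene of JNK1, had signals of 557.4, 312.4 and 378.8 in controls and of 511.5, 378.5 and 197.0 with SP600125. Mapk9, the gene of JNK2, had 549.8, 1273.8 and 1039.5 against 585.9, 1145.2 and 949.3. Both overlapped between groups, at -0.25 ± 0.25 and -0.06 ± 0.17. Mapk10, the gene of the neural form JNK3, was dim (1.1 to 125.7 in controls) and stood at -0.22 ± 0.67. The largest statistics in the list belonged to Mapk8ip2, a scaffold (1.40 ± 0.62), Dusp16, a JNK phosphatase (-0.69 ± 0.31), and Map3k10, an upstream kinase (0.93 ± 0.47), none of which passed.

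Of 26 tested AP-1 and immediate early genes 1 was called, Btg2, which is also on the p53 list, and the median was 0.08. At an unadjusted p under 0.05 in the limma fit, 5 of the 26 were higher and 4 lower, against 579 and 711 of the 12614 genes in all. Myc (-0.60 ± 0.24) and Egr1 (0.79 ± 0.37) did not pass after adjustment. Jun had signals of 204.0, 173.2 and 226.3 in controls and of 204.3, 186.0 and 239.9 with SP600125. This difference of 0.06 ± 0.30 lay within the spread of the samples. Junb (0.20 ± 0.43), Jund (0.09 ± 0.23) and Atf3 (0.21 ± 0.42) did not pass either, and each was negative in at least 1 omission. Dusp1, a MAP kinase phosphatase, stood at -0.65 ± 0.24 and Klf10 at 0.51 ± 0.19.

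AP-1 sites were looked for in the promoters because AP-1 is the classical output of JNK. The motif TGANTCA, which reads as itself on the opposite strand, lay in the 250 bases before the start of 3 of the 51 genes called lower that had a sequence, or 5.88 percent, and of 1 of the 37 called higher, or 2.7 percent. It lay in 5.66 percent of the 10196 tested genes with a sequence, so the called genes were near the background. The 4 matches are printed with 20 bases on either side, from the strand of the gene, with the match in capitals. The first 3 genes fell and AF067061 rose. The search left the middle base free, and it was G or C in the first 3 genes and T in AF067061.
F2r, chr13:95618644-95618690, minus strand: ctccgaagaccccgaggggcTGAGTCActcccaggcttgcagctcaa
Capn2, chr1:182517767-182517813, minus strand: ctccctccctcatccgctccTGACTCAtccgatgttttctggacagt
Fam25c, chr14:34355472-34355518, minus strand: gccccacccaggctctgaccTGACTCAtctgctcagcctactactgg
AF067061, chr13:120262896-120262942, plus strand: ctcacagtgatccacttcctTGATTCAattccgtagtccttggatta
Capn2, the protease calpain 2, fell by 0.79 ± 0.16, and Fam25c went from 15974.1, 6585.2 and 4470.9 to 7897.3, 2430.1 and 2338.3 (-1.13 ± 0.17). The cAMP response element TGACGTCA, which AP-1 relatives with ATF2 can bind, was found upstream of Plk2 and Btg2 among the rises (5.41 percent) and of Fscn1 among the falls (1.96 percent), against 2.91 percent of tested genes.

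Epiblast genes showed no calls, and trophectoderm genes 1 in each direction. Of 23 epiblast and pluripotency genes none was called, with 3 at an unadjusted p under 0.05 in the limma fit and a median of -0.02. Over all genes tested 0.951 percent were called, so a list of this size can hold no call at that share. Pou5f1 had signals of 904.6, 3363.1 and 3620.8 in controls and of 1212.6, 3422.2 and 3348.5 with SP600125 (0.11 ± 0.16), and Sox2 stood at -0.18 ± 0.14. Nanog was higher in all replicates (1111.3, 1763.5 and 2375.6 against 1929.5, 2858.2 and 2823.9) without passing (0.58 ± 0.20, adjusted p = 0.34). Of 23 trophectoderm genes Krt19 was called higher and Elf5 lower, where 0.404 and 0.547 percent of all genes tested were. At an unadjusted p under 0.05 in the limma fit, 5 of the 23 were higher and 2 lower, against 579 and 711 of the 12614 genes. The median was 0.07, while Cdx2 stood at 0.24 ± 0.15 and Eomes at 0.52 ± 0.13 (adjusted p = 0.0856). Among 22 interferon and innate immune genes none was called, with 16 negative and 6 positive values and a median of -0.29. At an unadjusted p under 0.05 in the limma fit, 7 were lower and 1 higher, against 711 and 579 of the 12614 genes in all. Ifitm2 (-0.87 ± 0.21, adjusted p = 0.0818) and Ifitm3 (-1.13 ± 0.28, adjusted p = 0.103) were lower in all replicates without passing. Il6 had signals of 160.0, 1285.5 and 1175.9 with SP600125 against 99.5, 244.5 and 186.6 in controls, so its rise was large on the 430 2.0 arrays and small in replicate 1 (1.84 ± 0.45, adjusted p = 0.0864).

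The other inhibitors allow the question whether a change also separates SP600125 from them, at the doses used, which differ. The contrasts against control share the 3 control samples, and SP600125 against another inhibitor shares the SP600125 samples with the call itself, so neither is independent of it. Of all probe sets 0.788 percent were called between SP600125 and SB203580 and 2.93 percent between SP600125 and U0126. Of the 51 genes called higher against control, 22 were also higher than with SB203580, 31 than with U0126 and 17 than with both. Of the 69 called lower, 12 were lower than with SB203580, 41 than with U0126 and 12 than with both. Neither contrast was called for 15 of the 51 rises and 28 of the 69 falls.

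Genes higher than with both inhibitors included the 2-cell stage genes Usp17la, Tcstv3 and Zfp352, and BC080696, D13Ertd608e and AF067061, named by earlier results. The p53 targets Plk2, Ddit4l and Ccng1, and Grb10, were also among them. Usp17la had signals of 134.4, 84.3 and 152.7 with SB203580 and of 92.7, 168.1 and 95.9 with U0126, near its control values. The difference of SP600125 was 2.69 ± 0.41 from SB203580 and 2.76 ± 0.41 from U0126 (limma adjusted p = 0.00273 and 0.00126). Grb10 stood at 0.02 ± 0.19 with SB203580 and -0.02 ± 0.19 with U0126 against control. Among the falls, Pdgfra, Aqp8, Col4a1, Col4a2, Ckap4, Car4 and Ckb, the brain type creatine kinase, were lower than with either. Aqp8 had 730.9, 1754.2 and 1810.8 with SB203580 and 887.1, 2112.7 and 2011.6 with U0126, all above its SP600125 signals of the same array type. Sox17, Sox7, Foxa2, Cubn and Sparc were not called against either inhibitor. For Sox17 the difference was -0.765 ± 0.208 from SB203580 and -0.517 ± 0.208 from U0126 (limma adjusted p = 0.113 and 0.202).

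Some of the other called genes, given here as examples, were near their values with 1 or both of the other compounds, and Klk7 was not. Krt19 stood at 1.18 ± 0.25, 1.26 ± 0.25 and 1.19 ± 0.25 with SP600125, SB203580 and U0126 against the shared controls, and Amn at -1.60 ± 0.26, -1.80 ± 0.26 and -1.53 ± 0.26. For Cyp51 the values were -1.0 ± 0.17, -1.17 ± 0.17 and -0.10 ± 0.17. SP600125 differed there from U0126 (-0.90 ± 0.17, limma adjusted p = 0.00871), and the difference from SB203580 was 0.17 ± 0.17. Nsdhl (-0.60 ± 0.12, -0.82 ± 0.12 and -0.74 ± 0.12) was called for each. Cdx1 fell with SP600125 and SB203580 (-1.90 ± 0.35 and -2.07 ± 0.35) and stood at -0.04 ± 0.35 with U0126. Klk7 differed from both in opposite directions, by 1.19 ± 0.21 from SB203580 and by -0.99 ± 0.21 from U0126 (limma adjusted p = 0.0112 and 0.0178). A difference that misses the threshold does not show that the compounds act alike.

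**Figure D5:**
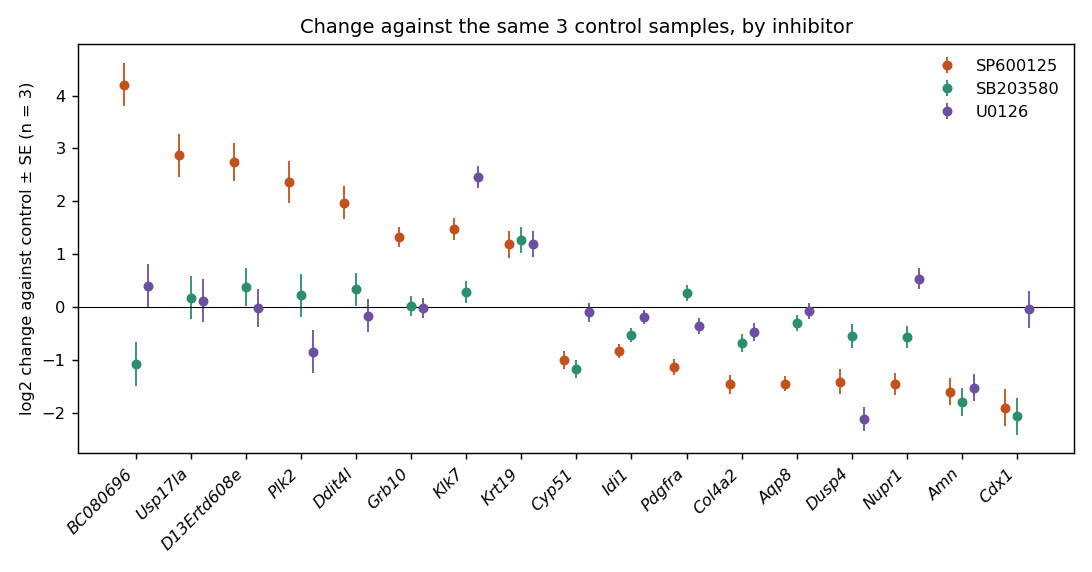
Log2 change ± SE (n = 3) of 17 genes against the same 3 control samples for SP600125 (orange), SB203580 (green) and U0126 (purple). SP600125 stands apart at BC080696, Usp17la, D13Ertd608e, Plk2, Ddit4l, Grb10, Pdgfra, Col4a2 and Aqp8, while the 3 compounds lie together at Krt19 and Amn.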

How the data were processed

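RNA of 12 blastocyst samples was read on 16 Affymetrix arrays, and each file holds 1 array. The deposited value of each probe set is an intensity on a linear scale. The authors had scaled each array, with 2 percent trimmed at each end, to a mean of 500, which was checked on every array from the deposited values. The software behind the probe set summary is not given in the sources used here. Depth has no meaning for arrays, and their number limits the precision.

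The members, the gene lists and several tests were chosen with earlier results of these data known. The 430A and 430B arrays of replicate 1 were joined, with the 430A value for the 100 probe sets on both, and control probe sets were left out. Of 45037 probe sets, 34945 named 1 gene in the platform annotation, 932 several and 9160 none. Symbols were updated through the gene ID for 34741. To each signal 12.6 (20th percentile on the 430 2.0 arrays) was added before log2. Probe sets whose mean over the 430 2.0 arrays of all groups reached the 40th percentile (42.9) were tested, 27022 in all. limma 3.58.1 in R 4.3.3 fitted the 4 groups with array type as a block and an intensity trend in the variance (7 residual degrees of freedom and, at the median, 9.7 prior ones). In simulated data for this comparison (27022 probe sets), the fit recovered 46 percent of probe sets changed by log2 1 and 85 percent of those changed by log2 2, with 5 false calls. The simulated errors were independent and normal, with the spread that limma had fitted. These figures therefore check the fit under its own assumptions and do not give the false calls in the real data. Of 42 lists, genes are counted by any called probe set, and medians use the brightest probe set. Genes were named if among the 20 largest rises or falls, if a called list member, if among the 3 largest statistics of a list, or as JNK and AP-1 genes, with further called genes, and uncalled members, named as examples after their values were seen. Promoters and names came from RefSeq GRCm38.p6. Alternatives covered the added constant, the filter, the samples fitted, normalization, the variance model, ambiguous probe sets, a replicate block and the omission of each sample.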

Additional observations from a re-analysis of the deposited data

How the results depend on the processing

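The 160 calls (72 higher, 88 lower) became 82 (43 and 39) on the 430 2.0 arrays alone, 101 (45 and 56) with arrays centred on their medians and 8 (4 and 4) without the intensity trend, where Aqp8, BC080696, Col4a2, D13Ertd608e, Foxq1 and Nupr1 were the called genes that kept their call. Leaving out 1 sample gave 76 to 91 calls, 29 to 46 higher and 40 to 55 lower, and 48 to 58 of the 120 called genes kept their call; 49 probe sets were kept in all 6 omissions. Other settings gave 127 to 189 calls, and no called gene reversed under any setting. The deviations of replicate 2 in the SP600125 and control groups correlated at 0.052, a single value that cannot show whether replicate numbers pair the samples. A replicate block gave 183 calls (86 higher, 97 lower), keeping 119 of the 120 genes. Among genes that did not pass, the sign turned on the 430 2.0 arrays alone for Pou5f1 (-0.04) and Junb (-0.41). Over the omissions of 1 sample, values on both sides of 0 were held by Dab2 -0.10 to 0.01, Pou5f1 -0.10 to 0.22, Mapk8 -0.45 to 0.03, Mapk9 -0.17 to 0.05, Mapk10 -0.85 to 0.25, Jun -0.09 to 0.19, Junb -0.28 to 0.41, Jund -0.27 to 0.42 and Atf3 -0.13 to 0.47. Settings added after seeing the data counted list calls on the 430 2.0 arrays and without SP600125 replicate 1. The cause of these shifts was not tested beyond the fewer samples that some of the settings hold. Signals near the added constant limit what dim transcripts can show.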
